A study of Mus musculus with 2 samples.

Results

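Early prophase spermatocytes of adult mouse testis are described here in 1 Nsun7 knockout (KO) library and 1 wild-type (WT) library of droplet-based single-cell RNA sequencing. The cells were chosen by detected genes, as the labels give no cell types. A barcode was kept as a cell with 200 or more detected genes and at most 20% mitochondrial counts. To be classed here, a kept cell also had to have under 10% of its counts in the protamine and transition protein genes Prm1, Prm2, Tnp1 and Tnp2. It was then called a leptotene-zygotene cell when at least 3 of 8 early meiotic genes (Dmc1, Prdm9, Meiob, Rad51ap2, Meioc, Smc1b, Prss50 and Hormad1) had a count and when more of these were detected than of 8 spermatogonial genes (Uchl1, Dmrt1, Crabp1, Rhox13, Esx1, Sohlh1, Sall4 and Dnmt3b) and of 8 pachytene genes (Piwil1, Ccna1, Aurka, Nek2, Cdc25c, Pou5f2, Ovol2 and Mybl1). This gave 395 of 13869 kept KO cells and 1018 of 15139 kept WT cells, or 1413 of 29008 in all.

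The series title concerns assembly of the sperm flagellum and NSUN7, a member of the RNA m5C methyltransferase family that it calls catalytically inactive. Cells came from dissociated testes of adult mice, on the DNBelab C droplet system. The KO mice carry an Nsun7 knockout; the labels do not give the part of the gene removed, how it was removed, the strain, the exact age or how many animals were pooled, and give WT only as such. Each genotype is 1 library, so differences between KO and WT were neither tested nor checked against replicates. Ranges in parentheses are 95% intervals of counting error alone and do not hold the spread between mice. Levels are in CPM, the counts of a gene summed over the cells of a class and scaled to a class total of 1000000.

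In leptotene, homologous chromosomes condense along a protein axis and SPO11 cuts the DNA at sites marked by PRDM9. In zygotene, strand exchange proteins such as DMC1 search for the homologue while telomeres are tethered to the nuclear envelope and the synaptonemal complex joins the paired axes. The X and Y chromosomes pair over only a short region, and genes on their unpaired arms are silenced as cells enter pachytene.

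The promoters of the defining genes are shown because they share a sequence motif. Of the 8 genes, 7 matched the RefSeq promoter table of GRCm38.p6 (Meiob did not), and all 7 held the E2F-type motif TCCCGC, searched on both strands, in at least 1 of their 300-base windows around a transcription start. The same letters were in 22.05% of all 27025 genes with such a window and in 41.4% of the 3677 matched genes at 50 CPM or more in leptotene-zygotene cells. Of 153 matched genes at least 2 times above both neighbouring classes, 43.8% held it, close to the share of expressed genes. The E-box CACGTG was in 1 of the 7, Hormad1, against 8.09% of all genes and 12.6% of the expressed ones. E2F6 and MGA, which bind motifs of these kinds, hold many germ cell genes silent in other mouse cells. Shown are the 150 bases before the start of 5 defining genes, picked among those with the E2F-type motif there, and of Sycp3, an axis gene used later, 5′ to 3′ on the gene's own strand, with both motifs in capitals on either strand. They are Dmc1 (chr15:79605110-79605259, minus strand), Smc1b (chr15:85131958-85132107, minus), Rad51ap2 (chr12:11455905-11456054, plus), Prss50 (chr9:110857814-110857963, plus), Hormad1 (chr3:95559527-95559676, plus) and Sycp3 (chr10:88459437-88459586, plus).
Dmc1: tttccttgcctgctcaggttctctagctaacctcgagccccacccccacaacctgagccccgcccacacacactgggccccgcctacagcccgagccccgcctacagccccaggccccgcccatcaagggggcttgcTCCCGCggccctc
Smc1b: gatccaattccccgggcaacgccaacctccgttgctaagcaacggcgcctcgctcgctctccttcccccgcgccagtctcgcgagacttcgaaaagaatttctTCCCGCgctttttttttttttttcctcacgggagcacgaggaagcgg
Rad51ap2: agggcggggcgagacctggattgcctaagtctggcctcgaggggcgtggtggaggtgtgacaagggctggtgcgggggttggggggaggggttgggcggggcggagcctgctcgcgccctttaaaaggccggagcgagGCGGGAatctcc
Prss50: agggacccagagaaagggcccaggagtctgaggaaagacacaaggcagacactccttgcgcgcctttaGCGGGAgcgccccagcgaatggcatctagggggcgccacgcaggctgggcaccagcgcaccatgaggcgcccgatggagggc
Hormad1: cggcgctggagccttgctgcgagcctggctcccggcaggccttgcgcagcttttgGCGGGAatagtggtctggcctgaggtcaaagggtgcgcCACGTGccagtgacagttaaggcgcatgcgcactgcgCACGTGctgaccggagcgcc
Sycp3: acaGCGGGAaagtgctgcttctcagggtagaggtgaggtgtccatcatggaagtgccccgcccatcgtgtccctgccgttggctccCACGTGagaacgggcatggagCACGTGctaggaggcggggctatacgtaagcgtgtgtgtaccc
Each of the 6 stretches thus holds 1 E2F-type motif by choice, while those of Meioc and of 1 of the 2 Prdm9 starts held 0. Those of Hormad1 and Sycp3 hold 2 E-boxes each. Of other genes used later, the same stretches of Hfm1, Inca1, Sdk1, H2-K1 and Stra8 held neither motif. Those of H2-D1 and Stxbp5l held 1 E2F-type motif each and no E-box. Matches are a description of the letters and say nothing of binding.

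The leptotene-zygotene cells had a median of 4528 counts and 2323 genes in KO and 3928.5 counts and 2172 genes in WT. Their mitochondrial share had a median of 11.4% in KO and 10.3% in WT cells, and after each cell was thinned to 1000 counts the median was 737 genes in KO and 750 genes in WT. Scrublet called 9 KO (2.28%) and 33 WT cells (3.24%) as doublets, which were kept. Markers of Leydig, Sertoli, macrophage, stromal and myoid cells together reached 1% of counts in 5 KO and 12 WT cells. Both matrices name barcodes by running numbers, so the 2168 names they share do not show shared cells.

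These spermatocytes made up a smaller share of the KO suspension. They were 2.85% (2.58 to 3.14) of kept KO cells and 6.72% (6.33 to 7.13) of kept WT cells. Cells before and after them by the same kind of rule were also a smaller share in KO. Spermatogonia-panel cells, with 3 or more spermatogonial genes and more of these than of the other panels, were 2.54% of KO and 5.36% of WT cells, and pachytene-panel cells were 9.71% of KO and 28.1% of WT cells. There were thus 1.12 (0.97 to 1.30) leptotene-zygotene cells per spermatogonia-panel cell in KO and 1.26 (1.14 to 1.38) in WT. There were 3.41 (3.04 to 3.82) pachytene-panel cells per leptotene-zygotene cell in KO and 4.18 (3.90 to 4.48) in WT. Kept cells include those at or above the 10% protamine and transition protein limit, which none of these classes could take. Their number in each library enters the shares but not the ratios between classes. A share of a suspension falls also when other cell types take more of it, and these cannot be told apart here.

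The targeted gene was low in the KO cells. Nsun7 (chromosome 5, 66259897 to 66298026, plus strand, GRCm38) had 31 counts in KO and 334 counts in WT leptotene-zygotene cells, or 10.8 CPM (7.32 to 15.3) in KO and 55.7 CPM (49.9 to 62.0) in WT, 5.17-fold lower (3.57 to 7.73). The log2 ratio with a prior of 5 CPM was -1.94. It was -1.36 after subtraction of a library-wide profile of free RNA scaled by protamine genes, and 0 when the profile was scaled by Leydig genes, which left both libraries without Nsun7 counts; in cells poor in somatic markers the Leydig scaling gave -1.80. It was at 6.48 CPM in KO and 26.6 CPM in WT spermatogonia-panel cells and at 47.0 CPM in KO and 215 CPM in WT pachytene-panel cells. It had a count in 6.58% of KO and 17.6% of WT leptotene-zygotene cells. At 1000 counts per cell these were 0 of 395 KO cells, where 3 cells would be 0.759%, and 4.22% of WT cells. Leydig cells, taken as those with 1% or more of counts in 6 Leydig genes, were at 2.95 CPM in KO and 14.1 CPM in WT, so in both libraries the leptotene-zygotene level was above the Leydig level.

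The 8 defining genes chose the cells, so their levels are a description. Dmc1, the meiosis-specific strand exchange recombinase, was at 406 CPM (383 to 430) in KO and 348 CPM (334 to 364) in WT leptotene-zygotene cells, at 59.4 CPM in KO and 61.6 CPM in WT spermatogonia-panel cells, and at 1.62 CPM in KO and 2.21 CPM in WT pachytene-panel cells. Prdm9, the histone methyltransferase that marks recombination hotspots, was at 175 CPM in KO and 136 CPM in WT. Meiob, a single-strand DNA binding protein of recombination sites, was at 113 CPM in KO and 123 CPM in WT. Both were under 20 CPM in the neighbouring classes of either library. Rad51ap2 was at 126 CPM in KO and 122 CPM in WT, against 0.540 CPM in KO and 0.849 CPM in WT spermatogonia-panel cells.

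The other 4 defining genes were also counted in cells before this stage. Meioc, which with YTHDC2 moves germ cells out of the mitotic programme in mice, was at 487 CPM in KO and 402 CPM in WT leptotene-zygotene cells and at 164 CPM in KO and 122 CPM in WT spermatogonia-panel cells. Smc1b, the meiotic SMC1 subunit of cohesin, was at 1142 CPM in KO and 1017 CPM in WT, and was still at 346 CPM in KO and 316 CPM in WT pachytene-panel cells. The serine protease gene Prss50 was at 488 CPM in KO and 357 CPM in WT. Hormad1, an axis protein that leaves synapsed chromosomes, was at 560 CPM in KO and 650 CPM in WT. The levels of the 8 genes lay within 1.37-fold of each other between the libraries, with Prss50 farthest above WT in KO and Hormad1 farthest below it.

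**Figure D1:**
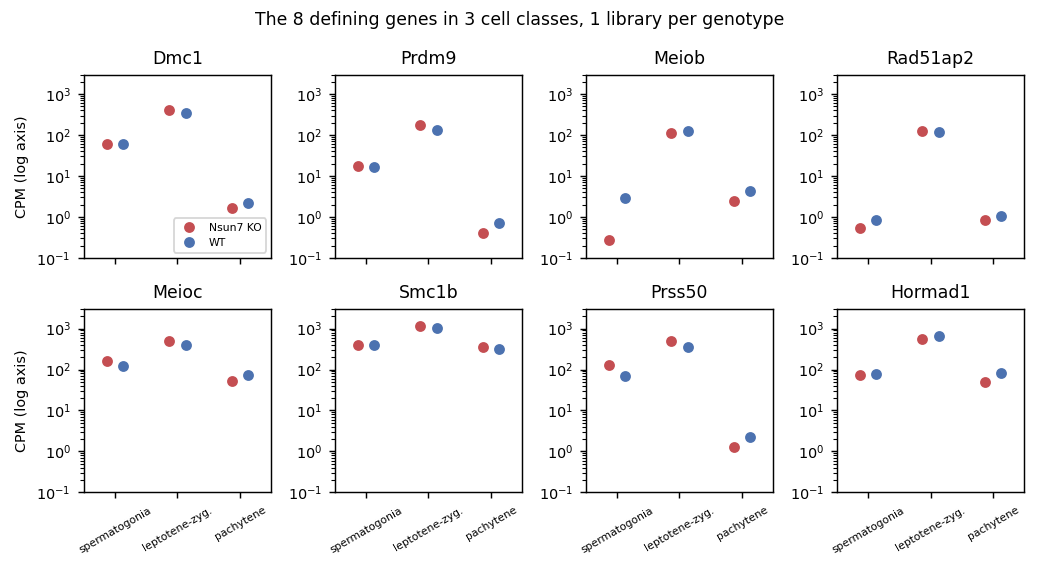
CPM of the 8 defining genes (log axis) in spermatogonia-panel, leptotene-zygotene and pachytene-panel cells; each point is 1 library, Nsun7 KO left of WT. All 8 genes were highest in the leptotene-zygotene cells in both libraries, by the way those cells were chosen, and Smc1b kept the most even level over the 3 classes.

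At the limit of the rule, 65 KO and 201 WT cells had exactly 3 of the 8 genes, with medians of 2083 counts in KO and 2129 counts in WT. The cells just outside had 2 of the 8 and more of them than of either other panel, 127 in KO and 261 in WT, with medians of 3217 counts in KO and 2285 counts in WT. Sycp3, which was not used to choose cells, was at 643 CPM in KO and 916 CPM in WT cells with 3 genes, and at 95.5 CPM in KO and 249.7 CPM in WT cells with 2. The 6 Leydig markers summed to 45.1 CPM in KO and 939 CPM in WT cells with 3 genes, and to 8314 CPM in KO and 5466 CPM in WT cells with 2. As a set, cells just outside the limit thus had far more Leydig RNA and less of this axis gene in both libraries. Leydig cells were not taken out of that set, and their part in these levels was not tested.

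Shares of cells with a count were set beside Leydig cells at equal depth, where the shares of defining genes follow from the rule. After thinning, Dmc1 had a count in 34.9% of KO and 33.1% of WT leptotene-zygotene cells, and in 0.299% of KO and 0.338% of WT Leydig cells, which should lack it. Sycp3, which the rule did not use, had a count in 75.7% of KO and 78.7% of WT cells, against 0.597% of KO and 1.01% of WT Leydig cells. Without thinning the shares for Sycp3 were 93.2% in KO and 94.5% in WT cells, and 9.85% of KO and 17.6% of WT Leydig cells; the medians were 14146 counts in KO and 9924.5 counts in WT Leydig cells.

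Genes outside the panels were first compared between these cells and their neighbours, within each library. A mean level of 50 CPM over the libraries was reached by 4534 genes. Among them 185 (4.08%) exceeded both spermatogonia-panel and pachytene-panel cells by 2 times or more in each library, on ratios with a prior of 5 CPM. With a limit of 10 CPM this held for 267 of 9916 genes (2.69%). Pbx3, a TALE homeobox factor, had the highest ratio. It was at 193 CPM in KO and 191 CPM in WT leptotene-zygotene cells, and at 13.5 CPM in KO and 11.2 CPM in WT spermatogonia-panel cells. Hfm1, the DNA helicase needed for crossovers in mice, was at 203 CPM in KO and 218 CPM in WT, against 21.05 CPM in KO and 16.4 CPM in WT spermatogonia-panel cells. Inca1, an inhibitor of cyclin-dependent kinases, was at 223 CPM in KO and 189 CPM in WT. All 3 were under 20 CPM in pachytene-panel cells of either library, so each was highest in early prophase in both.

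Other genes of this kind have roles outside meiosis. The cell adhesion gene Sdk1 was at 101 CPM in KO and 125 CPM in WT cells, the syntaxin-binding protein gene Stxbp5l at 46.9 CPM in KO and 53.7 CPM in WT, and Gml2 at 84.1 CPM in KO and 111 CPM in WT. The MHC class I heavy chain genes H2-K1 and H2-D1 were both among the 10 highest. H2-K1 was at 660 CPM in KO and 640 CPM in WT leptotene-zygotene cells, 100.4 CPM in KO and 114 CPM in WT spermatogonia-panel cells and 46.4 CPM in KO and 65.9 CPM in WT pachytene-panel cells. H2-D1 was at 104 CPM in KO and 109 CPM in WT leptotene-zygotene cells. Leydig cells had H2-K1 at 568 CPM in KO and 611 CPM in WT. Without the 5 KO and 12 WT cells rich in somatic markers H2-K1 was at 668 CPM in KO and 649 CPM in WT. The pair are closely related paralogues, and how the counting split their reads is not given.

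The label was then checked against known timing. In mice Stra8 peaks in preleptotene, at the retinoic acid signal that starts meiosis, and falls during leptotene. It had a count in 43.0% of KO and 35.1% of WT leptotene-zygotene cells after thinning, and in none of the KO and 0.338% of the WT Leydig cells. DNA replication genes, which act in preleptotene S phase, were also present. Rrm2, a ribonucleotide reductase subunit, was at 113 CPM in KO and 67.2 CPM in WT, and Mcm5, of the replicative helicase, at 182 CPM in KO and 129 CPM in WT. The 23 listed replication genes summed to 2708 CPM in KO and 2317 CPM in WT leptotene-zygotene cells. In spermatogonia-panel cells the sums were higher, 2870 CPM in KO and 3207 CPM in WT, so these genes alone do not tell preleptotene cells from spermatogonia. Genes of pachytene were present at the other end, as shown next. The cells therefore span more than leptotene and zygotene, with preleptotene and early pachytene genes at their ends.

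The cells were split by which other panel they also showed. The subsets are cells with spermatogonial but no pachytene genes (spermatogonia-only), with both, with neither, and with pachytene but no spermatogonial genes (pachytene-only). The spermatogonia-only subset held 132 KO cells (33.4%, 28.8 to 38.3) and 264 WT cells (25.9%, 23.3 to 28.7). The subset with both held 164 KO cells (41.5%) and 429 WT cells (42.1%), and that with neither held 42 KO cells (10.6%) and 110 WT cells (10.8%). The pachytene-only subset held 57 KO cells (14.4%, 11.1 to 18.3) and 215 WT cells (21.1%, 18.6 to 23.8). KO cells were thus tilted toward the spermatogonial end and WT cells toward the pachytene end.

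Detection depends on depth, which differed between subsets. Median counts were 3826.5 in KO and 2945 in WT spermatogonia-only cells, 7977.5 in KO and 5911 in WT cells with both, 1739 in KO and 1929.5 in WT cells with neither, and 2998 in KO and 3868 in WT pachytene-only cells. At 1000 counts per cell, any spermatogonial gene was found in 41.0% (36.1 to 46.0) of KO and 38.3% (35.3 to 41.4) of WT cells, and any pachytene gene in 20.5% (16.6 to 24.8) of KO and 26.2% (23.5 to 29.0) of WT cells. Unthinned, these shares were 74.9% of KO and 68.1% of WT cells for spermatogonial genes and 55.9% of KO and 63.3% of WT cells for pachytene genes. At equal depth the tilt was in the same direction, and the intervals of KO and WT overlapped for both panels. Within pachytene-only cells the pachytene genes had no common direction. Piwil1, the piRNA-binding protein MIWI, was at 119 CPM in KO and 316 CPM in WT, while Mybl1, the transcription factor A-MYB, was at 123 CPM in KO and 79.5 CPM in WT.

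**Figure D2:**
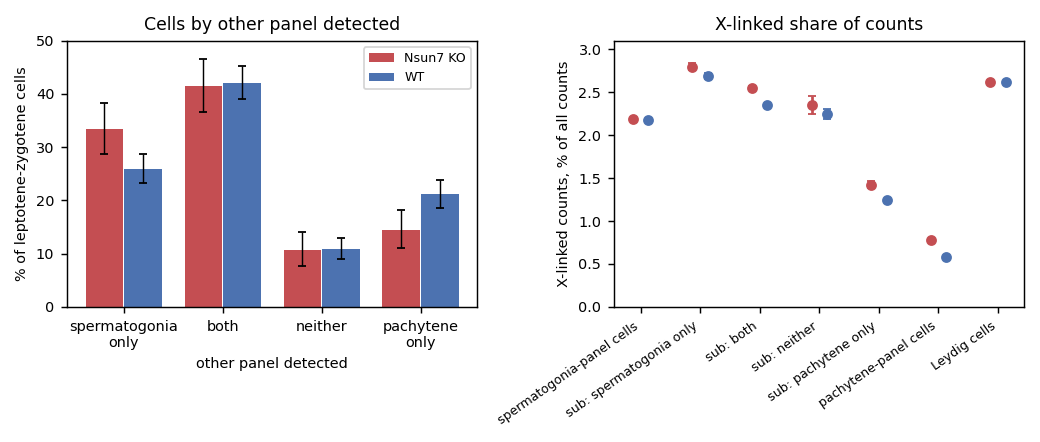
Left, share of leptotene-zygotene cells by the other marker panel detected, with exact 95% binomial intervals. Right, X-linked share of counts in neighbouring classes, the subsets and Leydig cells, with exact intervals; Nsun7 KO left of WT throughout. The pachytene-only subset was 14.4% of KO and 21.1% of WT cells, and its X-linked share lay between those of the other subsets and the pachytene-panel cells in both libraries.

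The subsets differed in genes that the panels do not hold. Stra8 was at 1605 CPM in KO and 1332 CPM in WT spermatogonia-only cells, and at 150 CPM in KO and 86.0 CPM in WT pachytene-only cells. Ccnd1, cyclin D1 of the G1 phase, was at 111 CPM in KO and 99.9 CPM in WT spermatogonia-only cells and at 10.2 CPM in KO and 2.46 CPM in WT pachytene-only cells. The cell cycle inhibitor gene Cdkn2a was at 97.4 CPM in KO and 89.99 CPM in WT spermatogonia-only cells and at 3.41 CPM in KO and 5.73 CPM in WT pachytene-only cells. The largest falls by the naming rule were those of Nt5dc2, Stra8, Cdkn2a, the X-linked Luzp4 and Ccnd1. Relative to spermatogonia-only cells, 344 of 4534 genes (7.59%) were at least 2 times lower in pachytene-only cells in both libraries and 462 (10.2%) were at least 2 times higher. At 10 CPM these shares were 9.33% and 11.4%.

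Among the genes higher in pachytene-only cells, Rsph1, a radial spoke head protein of motile cilia and sperm tails, was at 923 CPM in KO and 1193 CPM in WT, against 36.0 CPM in KO and 165 CPM in WT spermatogonia-only cells. Cox8c, a testis form of a cytochrome oxidase subunit, was at 388 CPM in KO and 599 CPM in WT pachytene-only cells and at 34.5 CPM in KO and 79.0 CPM in WT spermatogonia-only cells. Fsip2, a fibrous sheath protein of the sperm tail, was at 174 CPM in KO and 187 CPM in WT pachytene-only cells. Gml and Morc2b completed the 5 highest. The axis gene Sycp3 was at 2820 CPM in KO and 3132 CPM in WT pachytene-only cells and at 1573 CPM in KO and 1892 CPM in WT spermatogonia-only cells. The subsets thus run from cells rich in the meiotic entry gene to cells with sperm tail genes.

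**Figure D3:**
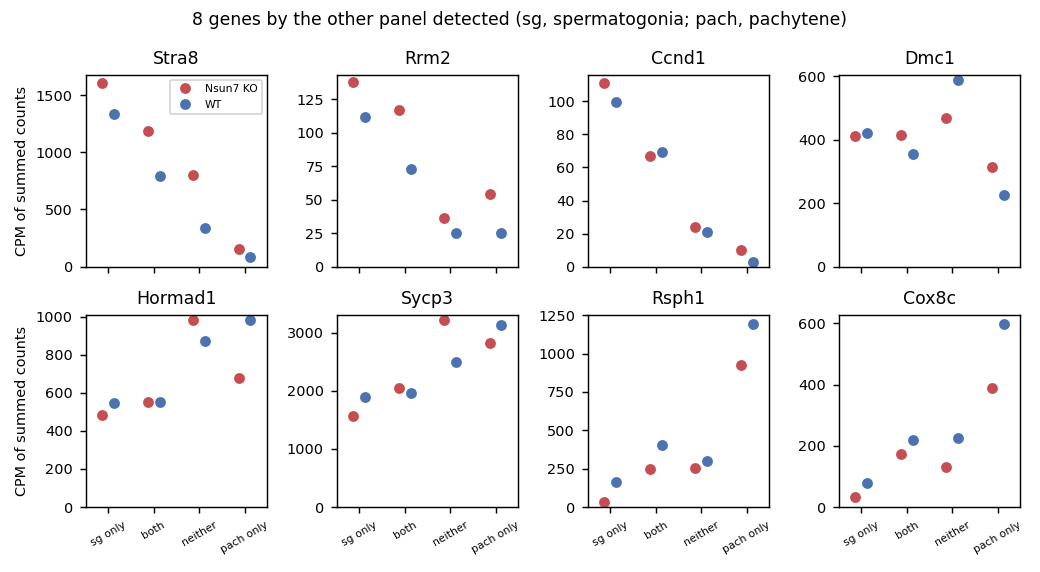
CPM of 8 genes in the 4 subsets of leptotene-zygotene cells, 1 point per library, Nsun7 KO left of WT. Stra8, Rrm2 and Ccnd1 were highest in spermatogonia-only cells, Rsph1 and Cox8c were highest in pachytene-only cells, and Dmc1 was lowest there in both libraries.

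Among the defining genes, Dmc1 was at 412 CPM in KO and 421 CPM in WT spermatogonia-only cells and at 313 CPM in KO and 226 CPM in WT pachytene-only cells. It chose the cells, so this is a description.

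Expression from the X chromosome changed along the same subsets. X-linked genes gave 2.80% (2.76 to 2.84) of counts in KO and 2.69% (2.66 to 2.72) in WT spermatogonia-only cells, 2.55% in KO and 2.35% in WT cells with both, 2.35% in KO and 2.25% in WT cells with neither, and 1.42% (1.38 to 1.47) in KO and 1.24% (1.22 to 1.26) in WT pachytene-only cells. Spermatogonia-panel cells were at 2.19% in KO and 2.17% in WT, and pachytene-panel cells at 0.775% in KO and 0.582% in WT. The X-linked share was thus above that of spermatogonia-panel cells in 3 of the 4 subsets, highest in spermatogonia-only cells, and below it in pachytene-only cells. Without the X-linked panel genes Rhox13 and Esx1, spermatogonia-only cells were at 2.74% in KO and 2.63% in WT, and spermatogonia-panel cells at 2.15% in KO and 2.14% in WT.

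Single X-linked genes followed. From spermatogonia-only to pachytene-only cells, 59 of 108 X-linked genes (54.6%) with 50 CPM were lower by 2 times or more in both libraries and 1 was higher. Of 4384 autosomal genes, 283 (6.46%) were lower and 456 (10.4%) higher. The median log2 ratio was -1.20 in KO and -1.41 in WT for X-linked genes and -0.07 in KO and -0.04 in WT for autosomal ones. Taf7l, an X-linked TAF7 paralogue, was at 911 CPM in KO and 890.0 CPM in WT spermatogonia-only cells and at 337 CPM in KO and 220.4 CPM in WT pachytene-only cells. Tex11, an X-linked crossover gene whose loss arrests mouse meiosis, was at 292 CPM in KO and 269 CPM in WT spermatogonia-only cells and at 98.8 CPM in KO and 59.0 CPM in WT pachytene-only cells. Over all leptotene-zygotene cells the X-linked share was 2.49% (2.47 to 2.504) in KO and 2.17% (2.16 to 2.18) in WT. The gap was smaller within each subset than over all cells, and the mix of subsets differed as given above; its part in the gap was not tested.

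Some retrocopies that stand in for silenced X-linked genes were higher in pachytene-only cells, though not always with a lower parent in both libraries. Rpl10, an X-linked ribosomal protein gene, was at 34.1 CPM in KO and 49.97 CPM in WT pachytene-only cells, against 141 CPM in KO and 140.5 CPM in WT spermatogonia-only cells. Its autosomal copy Rpl10l was at 252 CPM in KO and 364 CPM in WT pachytene-only cells, against 73.4 CPM in KO and 60.4 CPM in WT spermatogonia-only cells. Pdha2, a pyruvate dehydrogenase subunit copy, was at 242 CPM in KO and 270.3 CPM in WT pachytene-only cells and at 68.9 CPM in KO and 62.6 CPM in WT spermatogonia-only cells. Its X-linked parent Pdha1 was low, at 17.0 CPM in KO and 6.55 CPM in WT pachytene-only cells. In spermatogonia-only cells Pdha1 was at 13.5 CPM in KO and 13.2 CPM in WT, so it was lower at the pachytene end in WT alone. Over 6 pairs, 2 of the X-linked genes were at least 2 times lower and 2 of the retrocopies at least 2 times higher in pachytene-only cells in both libraries. Only the pair of Rpl10 and Rpl10l met both limits. Over all genes at 10 CPM these shares were 9.33% lower and 11.4% higher, and 54.6% of X-linked genes at 50 CPM were lower, so 2 of 6 is not more than among X-linked genes at large. The retrocopy Cstf2t had no common direction, at 13.6 CPM in KO and 46.7 CPM in WT pachytene-only cells against 27.0 CPM in KO and 27.4 CPM in WT spermatogonia-only cells. Copies share sequence with their parents, so the split of reads between them is uncertain.

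Between the libraries, the rest of the leptotene-zygotene transcriptome was close. At 2 times or more, 0 of the 4534 genes (0%) were higher and 12 (0.265%) lower in KO. At 1.5 times, 19 genes (0.419%) were higher and 130 (2.87%) lower in KO. With the 4 subsets weighted equally in each library, 57 were higher and 56 lower by 1.5 times. Both counts thus moved by over 1.5 times with the mix of subsets. The balance also turned with other settings, to 133 higher and 87 lower with 500 genes and 10% mitochondrial counts as cell limits, 88 and 47 with 2 defining genes, 319 and 71 after subtraction of free RNA scaled by Leydig genes and 46 and 32 by protamine genes. In cells poor in somatic markers the Leydig scaling gave 19 higher and 44 lower. More genes were also lower than higher with 4 defining genes, at 27 higher and 180 lower, and at 10 CPM, at 86 and 426. The rule on cells thinned to 1000 counts, with 2 defining genes, gave 413 higher and 757 lower.

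By the naming rule, the gene with the highest KO over WT ratio was Paqr5, a membrane progestin receptor gene, at 91.4 CPM in KO and 47.3 CPM in WT (1.93-fold, 1.63 to 2.29). Paqr5 was also higher in KO in spermatogonia-panel cells, at 77.4 CPM in KO and 44.7 CPM in WT. The same held in Leydig cells, at 62.3 CPM in KO and 36.0 CPM in WT. Its fold was 0.951 (0.271 to 2.75) in cells with neither panel. The log2 ratio of Paqr5, 0.88, was 0.55 with equal subsets, where Prss55 was higher at 0.86, and 1.71 with protamine scaling of free RNA. With Leydig scaling the ratio of Paqr5 was 0, as no Paqr5 counts were left in either library. In cells poor in somatic markers the Leydig scaling gave 0.99 for Paqr5. Hist1h2ba, the testis histone H2B that enters chromatin in spermatocytes, was at 74.3 CPM in KO and 39.2 CPM in WT (1.90-fold, 1.57 to 2.29). It was at 0 CPM in KO and 0.522 CPM in WT Leydig cells. Its fold within subsets was 1.22 (0.79 to 1.89) in spermatogonia-only cells, 2.19 (1.72 to 2.80) in cells with both, 2.85 (0.93 to 8.72) in cells with neither and 1.56 (0.85 to 2.73) in pachytene-only cells. Its sequence is close to those of other H2B genes, and how shared reads were counted is not given.

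Stra8 was at 1165 CPM in KO and 714 CPM in WT leptotene-zygotene cells (1.63-fold, 1.56 to 1.71). It was higher in KO in each of the 4 subsets, by 1.20-fold (1.11 to 1.31) in spermatogonia-only cells, 1.49-fold (1.41 to 1.58) in cells with both, 2.39-fold (1.70 to 3.35) in cells with neither and 1.74-fold (1.20 to 2.499) in pachytene-only cells. In spermatogonia-panel cells it was at 329 CPM in KO and 338 CPM in WT, and in Leydig cells at 0.921 CPM in KO and 1.83 CPM in WT. With the subsets weighted equally the log2 ratio was 0.55, against 0.70 over all cells. With free RNA subtracted it was 0.57 by protamine scaling, 0.27 by Leydig scaling and 0.63 by Leydig scaling in cells poor in somatic markers. The rule on cells thinned to 1000 counts, with 2 defining genes, gave 1.05. Rrm2 was at 113 CPM in KO and 67.2 CPM in WT (1.68-fold, 1.45 to 1.95), with 138 CPM in KO and 112 CPM in WT spermatogonia-only cells. Klf10, a zinc finger factor, was at 70.2 CPM in KO and 42.7 CPM in WT.

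The remaining genes of the 10 highest, ranked without clone-named (Rik) and predicted genes, were AI507597, the phosphatase gene Cdc14a, Prss55, protamine 1 (Prm1) and Asb17. Prm1, which packs DNA in spermatids, was at 6246 CPM in KO and 3983 CPM in WT leptotene-zygotene cells, and at 4705 CPM in KO and 2985 CPM in WT Leydig cells, which do not express it. AI507597, Cdc14a, Prss55 and Asb17 were likewise higher in KO Leydig cells, for instance Asb17 at 43.7 CPM in KO and 27.2 CPM in WT. The 8 spermatid markers summed to 23938 CPM in KO and 18661 CPM in WT leptotene-zygotene cells. With free RNA scaled by protamine genes subtracted, the log2 ratio of Prm1 was 0. Prm1 is among the genes that set this scale, so its 0 follows from the method. The others were 0.99 for AI507597, 1.24 for Cdc14a, 1.12 for Prss55 and 1.04 for Asb17, against 0.71, 0.70, 0.69 and 0.64 with no subtraction. With Leydig scaling all 5 were 0, which, as for Nsun7, left no counts of them in either library and does not show equal levels. With the same scaling in cells poor in somatic markers they lay between 0.65 for Asb17 and 0.83 for Cdc14a.

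**Figure D4:**
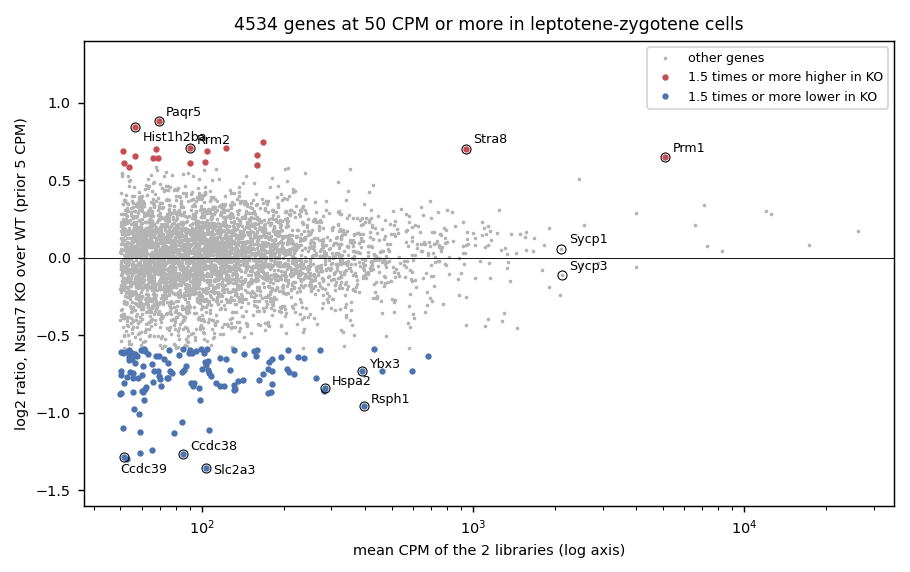
Log2 ratio of Nsun7 KO over WT, with a prior of 5 CPM, against the mean CPM (log axis) in leptotene-zygotene cells, 1 point per gene at 50 CPM or more without panel genes. Red points are at least 1.5 times higher and blue points at least 1.5 times lower in KO. There are 130 lower and 19 higher genes, a balance that turned under some of the settings named in the text and not under others. Stra8 and Prm1 are the most abundant of those that are named as higher.

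Most genes lower in KO were genes of the pachytene end. Of the 130 at least 1.5 times lower, 112 (86.2%) were at least 2 times higher in pachytene-only than in spermatogonia-only cells in both libraries. None of the 130 was at least 2 times lower there. Over all 4534 genes these shares were 10.2% and 7.59%. Slc2a3, a glucose transporter, was at 55.6 CPM in KO and 151 CPM in WT (2.71-fold lower), Ccdc39, a ruler of ciliary dynein arms, at 27.8 CPM in KO and 75.0 CPM in WT, and Ccdc38 at 47.9 CPM in KO and 122 CPM in WT. Pachytene-panel cells held far more of each, with 642 CPM in KO and 1025 CPM in WT for Slc2a3, 305 CPM in KO and 385 CPM in WT for Ccdc39, and 917 CPM in KO and 1064 CPM in WT for Ccdc38. Pabpc6, a poly(A)-binding protein gene, Tmbim7, Art3, Toporsl, the axonemal dynein gene Dnah8 and Adam2, a sperm surface protein needed for fertilisation in mice, followed. Dnah8 was at 35.4 CPM in KO and 83.2 CPM in WT, and Adam2 at 53.1 CPM in KO and 116 CPM in WT leptotene-zygotene cells. Rsph1, at 266 CPM in KO and 523 CPM in WT, and the testis chaperone Hspa2, at 201 CPM in KO and 366 CPM in WT, were lower too.

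Most of the 130 genes were also lower in KO Leydig cells. There 85 of them were at least 1.5 times lower and 0 higher, against 262 lower and 23 higher among all 4534 genes. Several were lower in KO within subsets too. Ccdc39 was at 1.498 CPM in KO and 19.8 CPM in WT spermatogonia-only cells, and at 106 CPM in KO and 155 CPM in WT pachytene-only cells. Rsph1 was 0.774-fold (0.677 to 0.881) of the WT level in pachytene-only cells and 0.218-fold (0.136 to 0.338) of it in spermatogonia-only cells. In Leydig cells Rsph1 was at 23.6 CPM in KO and 91.1 CPM in WT, and Ccdc38 at 10.7 CPM in KO and 39.4 CPM in WT. Among the 4 subsets Rsph1 was nearest to the WT level in cells with neither panel, at 0.844-fold (0.493 to 1.39). Pachytene-panel cells gave 9.71% of KO and 28.1% of WT cells, and the part of their RNA outside cells in these ratios was not tested. The ratios depended on how such RNA was handled. With a library-wide profile scaled by protamine genes subtracted, the log2 ratio of Slc2a3 was 0.094 and that of Ccdc38 2.21. With the profile scaled by Leydig genes in cells poor in somatic markers, Slc2a3 was at -0.96 and Ccdc39 at -1.07, against -1.36 and -1.29 with no subtraction.

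Lcn2, lipocalin 2, was a Leydig-rich gene among the 10 lowest. It was at 28.5 CPM in KO and 77.5 CPM in WT leptotene-zygotene cells, and at 5690 CPM in KO and 5375 CPM in WT Leydig cells. Without the 5 KO and 12 WT cells rich in somatic markers it was at 11.8 CPM in KO and 11.6 CPM in WT. Markers of somatic cells were lower in KO in sum over all leptotene-zygotene cells: Leydig genes summed to 272 CPM in KO and 367 CPM in WT, Sertoli genes to 500 CPM in KO and 817 CPM in WT, and stromal genes to 31.3 CPM in KO and 80.3 CPM in WT. Macrophage genes summed to 51.8 CPM in KO and 74.3 CPM in WT, and myoid genes to 6.95 CPM in KO and 5.50 CPM in WT. None of the 6 Leydig genes was detected in 282 of 395 KO and 739 of 1018 WT cells.

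Meiotic machinery, by lists of genes with known roles, was close between the libraries. Members at 10 CPM or more were counted, where 0.867% of all 9916 genes were at least 1.5 times higher and 4.3% at least 1.5 times lower in KO, with a median log2 ratio of -0.02. Panel genes in these lists are counted in the comparisons of libraries and of subsets and left out of the comparison with neighbouring classes. The shares over all genes leave them out. Panel genes chose the cells, so their ratios are a description.

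For the synaptonemal complex and axis, 0 of 13 genes were 1.5 times higher or lower, with a median log2 ratio of 0.05. Sycp1, the transverse filament that joins paired axes, was at 2158 CPM in KO and 2074 CPM in WT, and Sycp3 at 2049 CPM in KO and 2214 CPM in WT. Sycp2, the partner of SYCP3 in the axis, was at 856 CPM in KO and 1022 CPM in WT. The central element genes Syce2, Syce3 and Tex12 were at 793, 238 and 467 CPM in KO and at 712, 230.0 and 417 CPM in WT. Of 12 non-panel members, 6 were at least 2 times above both neighbouring classes in both libraries, against 2.69% of all genes. Syce1 was not among them, at 262 CPM in KO and 272 CPM in WT leptotene-zygotene cells and 493 CPM in KO and 544 CPM in WT pachytene-panel cells.

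Of 16 cohesin genes, 0 passed 1.5 times in either direction, with a median of 0.14. Of 15 non-panel members, 1 was at least 2 times above both neighbouring classes in both libraries. Rad21, the mitotic kleisin subunit, was at 61.8 CPM in KO and 86.7 CPM in WT leptotene-zygotene cells and at 264 CPM in KO and 285 CPM in WT spermatogonia-panel cells. The meiotic kleisin Rad21l was at 33.0 CPM in KO and 23.8 CPM in WT leptotene-zygotene cells, and at 2.70 CPM in KO and 4.67 CPM in WT spermatogonia-panel cells. Rec8, the other meiotic kleisin, was at 54.5 CPM in KO and 34.8 CPM in WT, just inside the 1.5-fold limit on the ratio with a prior. Stag3 was at 264 CPM in KO and 237 CPM in WT.

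Genes of double-strand break formation had a median of 0.04, with 0 of 11 past 1.5 times. Spo11, the enzyme that makes the breaks, was at 51.8 CPM in KO and 65.3 CPM in WT leptotene-zygotene cells and at 65.1 CPM in KO and 79.9 CPM in WT pachytene-panel cells, so its RNA outlasted the defining stage. It was also the member at least 2 times higher in pachytene-only than spermatogonia-only cells in both libraries. Gm960, which encodes the SPO11 partner TOPOVIBL, was at 64.6 CPM in KO and 69.5 CPM in WT leptotene-zygotene cells and at 1.71 CPM in KO and 2.00 CPM in WT pachytene-panel cells. Mei1, Rec114 and Ccdc36, which act with it in mice, were at 55.6, 52.5 and 148 CPM in KO and at 53.2, 43.3 and 144 CPM in WT. Zcwpw1, a reader of the marks set by PRDM9, was at 447 CPM in KO and 381 CPM in WT. Of 10 non-panel members, 4 were at least 2 times above both neighbours in both libraries.

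Strand exchange genes had a median of 0.04, with 0 of 21 past 1.5 times. Of the 21, 18 were not panel genes. Brca2, a mediator of strand exchange, was at 320 CPM in KO and 282 CPM in WT, and Tex15 at 713 CPM in KO and 568 CPM in WT. Psmc3ip, which encodes HOP2, and Mnd1 form a complex that activates DMC1. Psmc3ip was at 137 CPM in KO and 186 CPM in WT, and Mnd1 at 24.0 CPM in KO and 34.3 CPM in WT. Both were higher at the pachytene end: Mnd1 was at 47.7 CPM in KO and 69.6 CPM in WT pachytene-only cells, and at 10.5 CPM in KO and 16.5 CPM in WT spermatogonia-only cells. Of 21 members, panel genes included, 4 were at least 2 times higher and 2 at least 2 times lower in pachytene-only cells in both libraries. The shares of all genes, without panel genes, were 11.4% and 9.33%.

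Crossover genes had a median of 0.05, with 0 of 16 past 1.5 times. The MutS partners Msh4 and Msh5, which stabilise crossover intermediates, were at 49.7 and 68.1 CPM in KO and at 59.5 and 75.3 CPM in WT. Cntd1, which acts late in crossover maturation, was at 67.7 CPM in KO and 95.8 CPM in WT leptotene-zygotene cells and at 84.8 CPM in KO and 116 CPM in WT pachytene-panel cells. Telomere attachment genes had a median of 0.01, with 0 of 12 past 1.5 times. Terb1, Terb2 and Majin, the complex that ties telomeres to the inner nuclear membrane, were at 140.0, 72.6 and 104 CPM in KO and at 132, 66.5 and 91.2 CPM in WT. All 3 were among the 4 list members at least 2 times above both neighbours in both libraries, together with Sun1, the envelope protein of the same linkage, at 143 CPM in KO and 150.3 CPM in WT.

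Meiotic entry genes had a median of 0.16, with Stra8 as the single member of 13 at least 1.5 times higher and 0 lower. Gm4969 was at 68.8 CPM in KO and 52.3 CPM in WT leptotene-zygotene cells, and at 8.91 CPM in KO and 9.34 CPM in WT spermatogonia-panel cells. Ythdc2, the RNA helicase that binds MEIOC, was at 117 CPM in KO and 116 CPM in WT. Dazl, a germ cell translation regulator, was at 2025 CPM in KO and 1774 CPM in WT. Pcgf6, a subunit of the E2F6 and MGA repressor complex, was at 58.0 CPM in KO and 84.3 CPM in WT leptotene-zygotene cells, and at 102 CPM in KO and 158 CPM in WT pachytene-only cells.

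DNA replication genes had the highest median of the meiotic and replication lists, 0.24, below the 0.25 of spermatid markers, and Rrm2 alone of 22 passed 1.5 times. Mcm4 was at 92.4 CPM in KO and 62.3 CPM in WT, and Pcna at 317 CPM in KO and 296 CPM in WT. Of the 22, 10 were at least 2 times lower in pachytene-only than in spermatogonia-only cells in both libraries, against 9.33% of all genes. The list thus moved with the subset that was a larger share of KO cells, whose part in the median was not tested.

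The piRNA pathway had the lowest median of the meiotic lists, -0.13, with 2 of 17 genes at least 1.5 times lower and 0 higher in KO. They were Tdrd1, at 40.6 CPM in KO and 64.7 CPM in WT, and Tdrd6, at 31.3 CPM in KO and 59.2 CPM in WT, both Tudor proteins of the germ granule. Mael, a germ granule protein, was at 538 CPM in KO and 587 CPM in WT. Of the 17, 7 were at least 2 times higher in pachytene-only cells in both libraries, against 11.4% of all genes. With the subsets weighted equally the median was 0.056, so its direction depended on the mix of subsets.

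Genes of sex chromosome silencing had a median of 0.11, with 0 of 11 past 1.5 times. Atr, the kinase that starts the silencing, was at 477 CPM in KO and 486 CPM in WT, and Mdc1, which spreads the signal along chromatin loops, at 183 CPM in KO and 188 CPM in WT. Both were at least 2 times above both neighbouring classes in either library. The X-linked regulator Scml2 was at 394 CPM in KO and 329 CPM in WT.

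**Figure D5:**
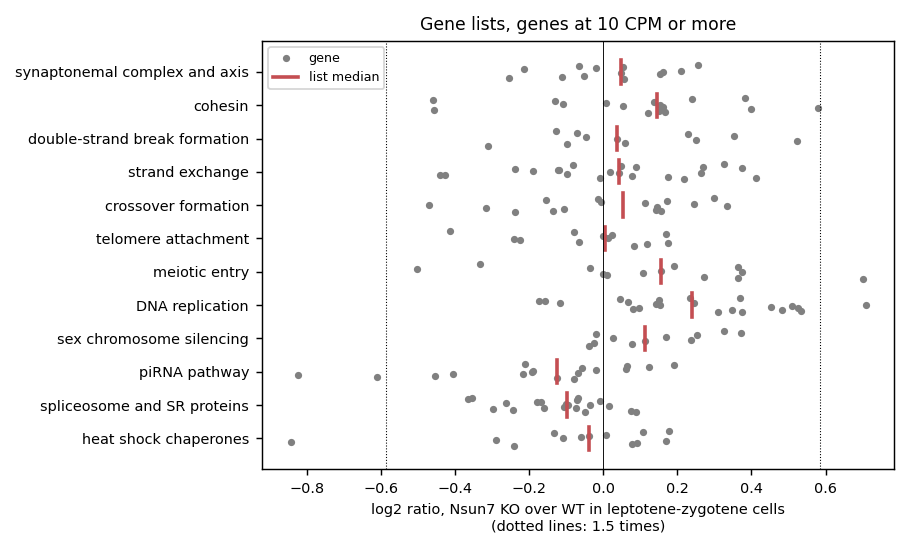
Log2 ratio of Nsun7 KO over WT in leptotene-zygotene cells for genes of 12 lists at 10 CPM or more; grey points are genes, red bars list medians and dotted lines 1.5 times. Points past the dotted lines are Stra8, Rrm2, Tdrd1, Tdrd6 and Hspa2, and the DNA replication median of 0.24 is the farthest from 0.

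Other lists follow. Among 13 genes of RNA m5C writer families and readers (median -0.05), Nsun7 and the cold shock protein gene Ybx3, at 291 CPM in KO and 487 CPM in WT, were at least 1.5 times lower. Ybx3 was at 2080 CPM in KO and 2404 CPM in WT pachytene-panel cells. Nsun2, a tRNA and mRNA methyltransferase, was at 73.0 CPM in KO and 82.5 CPM in WT. Of 10 testis histone and chromatin genes, Hist1h2ba and Hist3h2ba were at least 1.5 times higher in KO, and Hist1h2aa, the testis H2A beside Hist1h2ba, was at 81.6 CPM in KO and 66.3 CPM in WT. The 13 heat shock chaperones had a median of -0.04 with Hspa2 alone lower, and the 20 splicing genes a median of -0.10 with none past 1.5 times. The 7 measured genes of p53 and apoptosis had a median of -0.11 and none past 1.5 times. The 7 measured immediate early genes, which respond to dissociation, had a median of -0.49, with 2 of 7 at least 1.5 times lower in KO. All 10 listed summed to 177 CPM in KO and 271 CPM in WT, and to 68.4 CPM in KO and 97.2 CPM in WT without the cells rich in somatic markers. The direction differed between subsets. The sums were 264 CPM in KO and 116 CPM in WT spermatogonia-only cells, and 54.5 CPM in KO and 470 CPM in WT pachytene-only cells. They were 167 CPM in KO and 250 CPM in WT cells with both panels, and 120 CPM in KO and 151 CPM in WT cells with neither.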

How the data were processed

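The authors deposited 1 matrix of raw counts for each library, and PISA 0.12 is named as its writer per the file headers. The build was GRCm38, per the submitters' processing notes. For the aligner, annotation, use of strand and barcode filter, the sources used here give nothing, and each barcode had at least 1001 counts, summing to 210531446 in KO and 220247156 in WT. Genes were joined by symbol (30052), of which 97.5% had a GENCODE M21 chromosome. Classes were set by the stated rules, with Leydig cells at 1% or more of counts in 6 Leydig genes, and counts were summed per class. Shares have Clopper-Pearson intervals, levels Poisson intervals and folds conditional binomial intervals. A fold of named genes has no prior, and ratios used to rank or count add 5 CPM. The members and lists were chosen with earlier results of these data known. The genes named are Nsun7, the defining genes, the 10 highest and 10 lowest KO over WT ratios, the 10 highest over neighbouring classes, 5 genes at each end of the subsets, and the extreme or most abundant list members; other list members named were chosen after their values were seen. Panel genes, predicted genes (Gm with digits), clone names ending in Rik, mitochondrial and ribosomal protein genes were left out of the rankings. Doublets were called with Scrublet in scanpy 1.11.5, and other steps used Python 3.11.15, numpy 2.4.6, scipy 1.17.1 and pandas 2.3.3. The counting was tested on simulated data. Some results are not reported here.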

Additional observations from a re-analysis of the deposited data

How the results depend on the processing

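No paired analysis was possible because each genotype has 1 library and no test was made. The KO minus WT share of cells, -3.88 points, was -2.44 with 500 genes and 10% mitochondrial counts, -3.02 with 4 defining genes and -4.68 with 2. The difference in X-linked share, 0.32 points, was 0.37 with 4 genes, 0.21 with 2 and 0.83 with the rule on thinned cells. That rule used cells thinned to 1000 counts and also lowered the minimum to 2 defining genes. Every value given for thinned cells in this section holds both changes. The 0 genes at least 2 times higher became 4 with the strict cell filter, 3 with 2 defining genes, 18 on thinned cells, 2 at 10 CPM, 1 with subsets weighted equally, 184 after subtracting free RNA scaled by Leydig genes and 9 by protamine genes. The 12 lower became 63 with 4 defining genes, 5 with 2, 381 on thinned cells, 32 at 10 CPM, 0 at 200 CPM, 5 by Leydig genes, 4 by protamine genes and 3 by Leydig genes without cells rich in somatic markers. List medians moved to -0.19 for crossover formation (strict filter); -0.22 for the piRNA pathway and -0.22 for splicing (2 genes); 0.26 for the synaptonemal complex, 0.28 for cohesin, 0.36 for break formation, 0.15 for telomere attachment, 0.44 for meiotic entry, -0.39 for the piRNA pathway, 0.088 for splicing and 0.20 for p53 (thinned cells); -0.26 for the synaptonemal complex, -0.16 for cohesin, break formation and strand exchange, -0.083 for meiotic entry, 0.037 for DNA replication, -0.23 for sex chromosome silencing and -0.32 for splicing (Leydig genes); -0.18 for splicing (protamine genes); and 0.056 for the piRNA pathway (equal subsets). Log2 ratios that changed sign were Lcn2 at 0.081 (strict filter), 0.36 (2 genes), 0.015 (without cells rich in somatic markers) and 0.39 (the same, with Leydig scaling); by Leydig genes Slc2a3 2.79, Ccdc39 2.18, Pabpc6 0.31, Tmbim7 1.78, Art3 2.5, Dnah8 1.96, Toporsl 1.76 and Adam2 3.12; and by protamine genes Slc2a3 0.094, Ccdc38 2.21, Pabpc6 2.49, Tmbim7 0.29 and Art3 0.24. The cause was not tested, but the level of Leydig genes relative to the whole library, which sets that subtraction, was 32.6% in KO and 61.5% in WT cells, against 6.19% in KO and 10.2% in WT without the cells rich in somatic markers. Protamine scaling and leaving out cells rich in somatic markers were chosen after seeing the data. The chief limits are 1 library per genotype, classes set by detection in cells of unequal depth, and free RNA of cells whose share differed between libraries.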
